A study of Homo sapiens with 6 samples.

Results

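The TAM receptors AXL, TYRO3 and MERTK and their ligands GAS6 and PROS1 were followed through RNA sequencing of PRMT6-knockdown U87 cells. They are 5 of the 60612 genes in the deposited table, and each Ensembl identifier was matched to 1 symbol. AXL was picked because it stood among the genes with lower RNA in this same contrast, and the other 4 because they are its relatives and its ligands. The differences between the groups are therefore given for these 5 genes as a description, with no test. U87 is an established line of human glioblastoma cells. PRMT6 is an arginine methyltransferase that modifies histone H3 among other proteins. The study compared 3 control libraries (NC), from U87 cells carrying a scramble shRNA, with 3 libraries from U87 cells carrying an shRNA against PRMT6 (shPRMT6), to see how loss of PRMT6 changes gene expression. Both groups had received their shRNA by lentivirus, and the methods describe puromycin selection of stable cells, without saying whether they were pools or clones.

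TAM receptors are receptor tyrosine kinases of the cell surface. GAS6 and protein S, the product of PROS1, bind phosphatidylserine on dying cells with one end and a TAM receptor with the other, so that they work as bridges. In macrophages and microglia these receptors drive the uptake of dead cells and damp inflammation. In glioblastoma and other tumours AXL is known for roles in migration, survival and drug resistance. GAS6 binds all of the TAM receptors, and AXL most tightly, while protein S acts on TYRO3 and MERTK and circulates in blood as a cofactor of anticoagulant protein C.

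PRMT6 itself, the targeted gene, was measured at 522, 606 and 449 counts in NC replicates 1, 2 and 3 and at 227, 282 and 355 counts in shPRMT6 replicates 1, 2 and 3. Scaled to a common library size (CPM), this was 8.17 ± 1.08 (SD, n = 3) in NC and 4.46 ± 0.844 in shPRMT6, or 54.7% of the NC mean. Its log2 fold change was -0.87 (SE 0.187), with an adjusted p of 0.0225 (quasi-likelihood test of edgeR, Benjamini-Hochberg over all genes tested). This call was lost, with adjusted p from 0.0588 to 0.0713, when NC replicate 1, shPRMT6 replicate 1 or shPRMT6 replicate 2 was left out. Total counts ran from 56388161 to 75887696 per library, with 8.28% to 8.57% of an NC library and 9.66% to 10.0% of an shPRMT6 library in its 10 top genes. Of 9 markers of glioblastoma lines and astroglia, 5 stayed under 1 FPKM in every library. VIM, CD44 and NES, which glioblastoma lines express, and SLC1A3 were above 1 FPKM in every library. SOX2 and OLIG2 were not, S100B and AQP4 had no counts, and GFAP, the classic astroglial marker, stayed under 0.065 FPKM.

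The sequences that bear on AXL and PROS1 are the promoters of both genes and the sites that the shRNAs could pair with. AXL (ENSG00000167601) lies on the plus strand at chr19:41219203-41261766 of GRCh38, and PROS1 (ENSG00000184500) on the minus strand at chr3:93873033-93980003. RefSeq lists 2 start sites for AXL and 1 for PROS1 among its promoter windows, which run from 250 bases before to 50 bases after a start on GRCh38.p14. In the lines that follow, capitals mark a GC box (GGGCGG on either strand), the element to which SP1 and SP3 bind, or the letters GGAATG on either strand, the core of sites for TEAD factors. The windows lie at chr19:41218973-41219272 for the first AXL start, at chr19:41226505-41226804 for the second and at chr3:93973847-93974146 for PROS1.
AXL, start 1: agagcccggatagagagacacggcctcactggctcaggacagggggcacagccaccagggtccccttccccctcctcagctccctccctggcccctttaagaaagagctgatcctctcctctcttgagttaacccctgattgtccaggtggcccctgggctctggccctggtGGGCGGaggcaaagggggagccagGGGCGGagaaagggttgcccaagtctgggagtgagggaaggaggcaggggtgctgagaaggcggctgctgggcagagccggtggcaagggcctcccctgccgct
AXL, start 2: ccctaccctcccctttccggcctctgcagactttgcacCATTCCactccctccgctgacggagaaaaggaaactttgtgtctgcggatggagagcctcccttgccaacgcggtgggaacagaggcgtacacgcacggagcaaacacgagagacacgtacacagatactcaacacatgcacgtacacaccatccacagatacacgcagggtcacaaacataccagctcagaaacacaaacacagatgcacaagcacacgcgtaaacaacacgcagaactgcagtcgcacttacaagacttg
PROS1, start 1: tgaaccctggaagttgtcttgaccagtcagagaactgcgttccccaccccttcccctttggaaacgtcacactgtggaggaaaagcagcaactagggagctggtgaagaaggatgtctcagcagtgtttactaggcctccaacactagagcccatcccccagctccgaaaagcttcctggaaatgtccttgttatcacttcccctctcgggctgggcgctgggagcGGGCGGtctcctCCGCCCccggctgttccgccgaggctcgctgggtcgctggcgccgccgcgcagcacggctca

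The first AXL window and the PROS1 window each held 2 GC boxes, while the window of the second AXL start held none. The letters GGAATG occurred once, in the second AXL window, and not in the PROS1 window. The AP-1 letters TGACTCA, the site of FOS and JUN proteins, were in none of the windows of the 5 genes. Of 35116 RefSeq promoter windows of the same length, 45.0% held a GC box, 14.0% held GGAATG and 4.95% held TGACTCA. Windows of the other members held 3 GC boxes at the first TYRO3 start, none at the second, 5 at the MERTK start and 3 at the GAS6 start. A match of letters is a description of these windows and does not show that a factor binds there.

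The shRNA sequences are shown because a short hairpin can also pair through its seed, bases 2 to 8 of its antisense strand, with 3′ UTRs of other genes. The sources used here list 3 shRNAs and do not say which was sequenced. For its growth assays the paper names #2 and #3, and for qRT-PCR in U87 cells #2. Its text names #1 only in the list of sequences. The labels number the shPRMT6 libraries shRNA-1 to shRNA-3. The methods call these libraries independent replicates and do not say whether they share 1 shRNA. Capitals mark the bases that pair with the seed, first in the listed target and then in the 3′ UTR of a member.
shPRMT6 #1, target: gcccagtttgagaTGCCTTAt
shPRMT6 #2, target: caccggcattctgAGCATCTt
shPRMT6 #3, target: cacggacgtttcaGGAGAGAt
AXL 3′ UTR, site of #2: tccggatcctaAGCATCTaagttataaga
PROS1 3′ UTR, site of #1: gagggtcctaaTGCCTTAtttcaaaacaa

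The targets of #2 and #3 lie in the coding sequence of PRMT6, at chr1:107056991-107057011 and chr1:107057717-107057737 on the plus strand. The target listed for #1 was in no PRMT6 transcript of GENCODE 29 and matched transcripts of PRMT5, a related methyltransferase, in full. Sites were read in the 3′ UTRs of AXL, MERTK, GAS6 and PROS1. The seed site of #2 occurred in 1 of these 4 genes, at chr19:41261253-41261259 in the 1862-base 3′ UTR of AXL, and in 13.96% of the 3′ UTRs of 19050 genes. That of #1 occurred in 1 of the 4, at chr3:93873750-93873756 in the 3′ UTR of PROS1, and in 12.89% of all 3′ UTRs. None of the 4 held the site of #3, which 17.82% of the 3′ UTRs held. The part of these sites in the values that follow was not tested.

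AXL RNA was lower in every shPRMT6 library than in every NC library. It was counted 20837, 27025 and 22829 times in NC replicates 1, 2 and 3, and 10822, 10953 and 12121 times in shPRMT6 replicates 1, 2 and 3. Scaled for library size, these are 373, 355 and 366 CPM against 170, 178 and 179 CPM. The groups lay far apart, and within each the libraries were close, with an SD of 2.37% of the mean in NC and 2.80% in shPRMT6. Counting error alone would give 0.651% and 0.941%. The means were 364.6 ± 8.66 CPM and 175.6 ± 4.92 CPM (SD, n = 3), so that shPRMT6 stood at 48.2% of NC. The log2 fold change of AXL was -1.05 (SE 0.0518), and it stayed between -1.07 and -1.03 as each library was left out.

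TYRO3, the receptor most abundant in brain tissue, differed the other way and by less. The gene (ENSG00000092445) lies on the plus strand at chr15:41557675-41583586. Its CPM was 27.3, 29.1 and 32.5 in NC and 35.5, 38.6 and 35.2 in shPRMT6. The lowest shPRMT6 library was above the highest NC library, though the gap was smaller than the range of either group. The shPRMT6 mean was 123% of the NC mean, with a log2 fold change of 0.30 (SE 0.0928).

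MERTK, the receptor through which macrophages clear dead cells, was barely detected. The gene (ENSG00000153208) lies on the plus strand at chr2:111898479-112029561. It had 8, 16 and 11 counts in NC and 20, 8 and 34 counts in shPRMT6. The groups overlapped, since shPRMT6 replicate 2 was as low as the lowest NC library. The exact 95% Poisson intervals, which cover counting error only, were 3.45 to 15.8 for 8 counts and 23.5 to 47.5 for 34 counts, so that shPRMT6 replicates 2 and 3 differed by more than counting error. The log2 fold change of MERTK was 0.83 (SE 0.62), and it was 0.33 without shPRMT6 replicate 3 and 1.20 without shPRMT6 replicate 2.

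**Figure D1:**
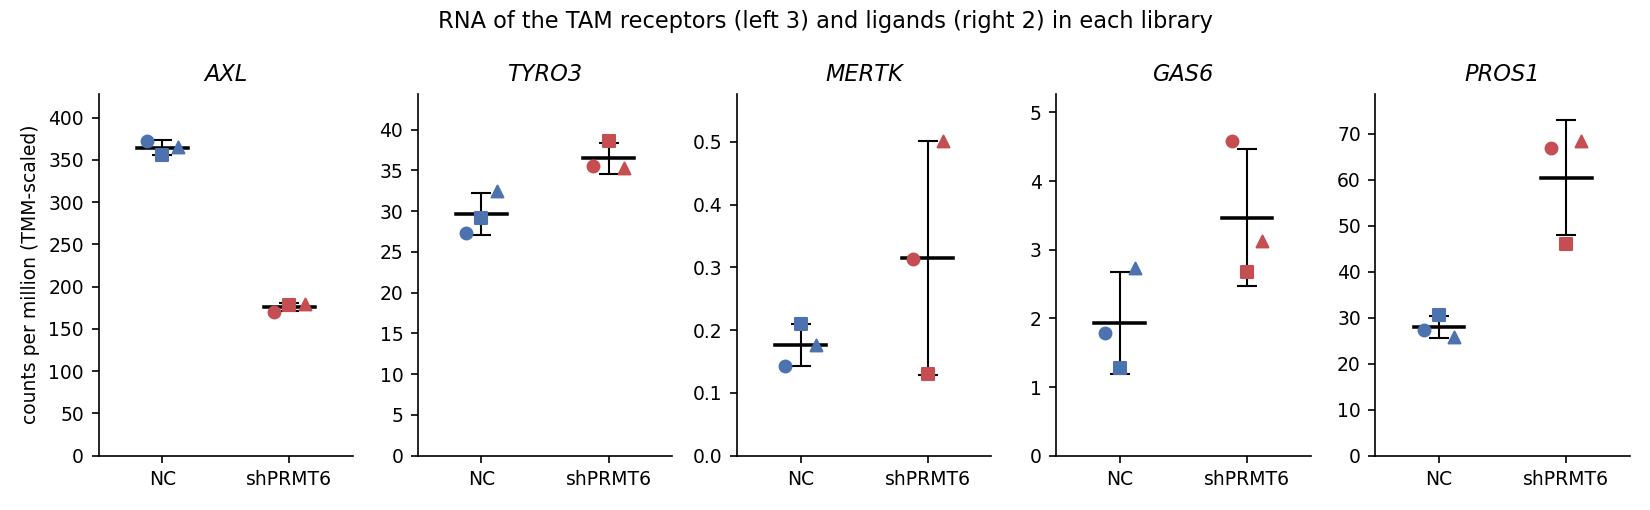
Library-scaled counts (CPM) of the 5 genes, each panel with its own linear axis from 0; points are libraries (circle, square and triangle for replicates 1, 2 and 3), horizontal lines are group means and bars are SD (n = 3). AXL lies at 355 to 373 CPM in NC and 170 to 179 CPM in shPRMT6, the PROS1 groups are apart in the other direction, and the MERTK and GAS6 groups overlap.

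GAS6, the ligand that binds AXL most tightly, was a low-abundance transcript in these cells. The gene (ENSG00000183087) lies on the minus strand at chr13:113820549-113864067. It had 100, 97 and 171 counts in NC, which is 1.79, 1.28 and 2.74 CPM, and 292, 165 and 212 counts in shPRMT6, which is 4.59, 2.68 and 3.13 CPM. NC replicate 3 was above shPRMT6 replicate 2, so the groups overlapped, although the shPRMT6 mean was 179% of the NC mean. The log2 fold change of GAS6 was 0.84 (SE 0.342) and ranged from 0.59 to 1.18 as each library was left out. The SD of GAS6 was 38.4% of the mean in NC and 28.7% in shPRMT6, where counting error alone would give 9.03% and 6.70%.

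PROS1, which encodes protein S, was higher in every shPRMT6 library than in every NC library. It was counted 1528, 2325 and 1617 times in NC and 4260, 2832 and 4638 times in shPRMT6, or 27.3, 30.6 and 25.9 CPM against 66.9, 46.0 and 68.5 CPM. shPRMT6 replicate 2 lay below its companions and still above the highest NC library. The means were 27.9 ± 2.40 CPM and 60.5 ± 12.5 CPM (SD, n = 3), with shPRMT6 at 216% of NC. The log2 fold change of PROS1 was 1.11 (SE 0.165), and it stayed between 1.02 and 1.28 as each library was left out.

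AXL and PROS1 thus lay on opposite sides, at 48.2% and 216% of NC. All 5 members passed edgeR's filter on low counts. No test outcome is given for these 5 genes. Any other gene with an adjusted p under 0.05 is termed called. Of all 18106 genes tested, 18.6% were called, 9.06% lower and 9.51% higher in shPRMT6. Groups did not overlap for AXL on the lower side and for TYRO3 and PROS1 on the higher side, as was so for 19.9% of all genes on the lower and 20.3% on the higher side. AXL was chosen from this contrast, so that nothing is read from these counts.

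**Figure D2:**
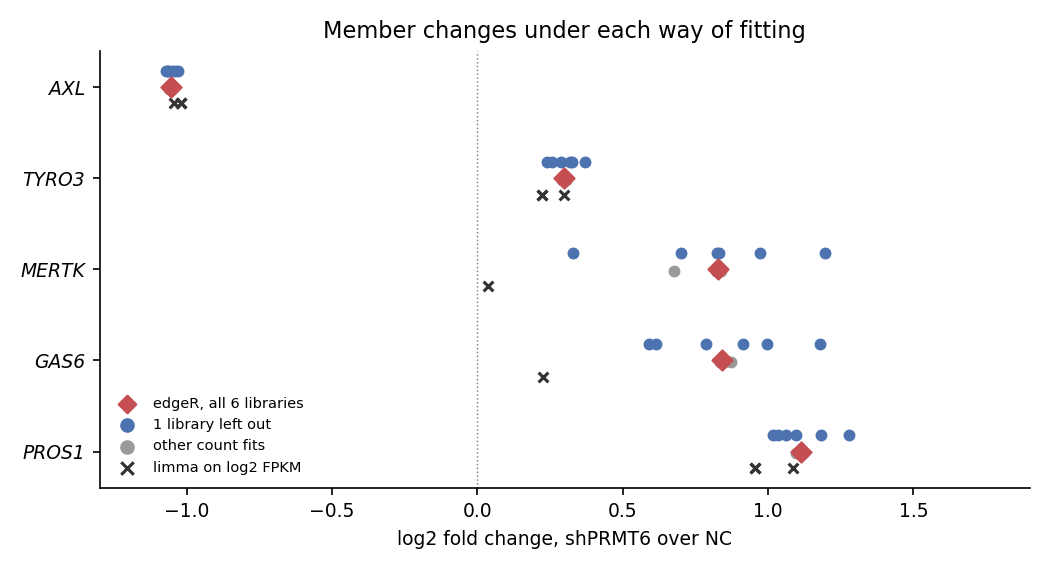
Log2 fold change of shPRMT6 over NC for the 5 genes (horizontal axis, dotted line at 0) under each way of fitting; diamonds are edgeR on all 6 libraries, blue points leave out 1 library, grey points are other fits of counts and crosses are limma on log2 FPKM. AXL stays between -1.07 and -1.03 and PROS1 between 1.02 and 1.28 over the blue points, while MERTK runs from 0.33 to 1.20.

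Antisense genes and pseudogenes could add or take reads, since the library kit does not mark the strand and reads of a gene and its antisense partner cannot then be told apart. AXL shares 67 bases of exon, or 1.30% of its exon length, with the antisense gene AC011510.1. That gene had 11, 13 and 10 counts in NC and 0, 0 and 5 in shPRMT6, a very small number beside the AXL counts. GAS6 shares 421 bases (7.01%) with GAS6-AS1, which had 66, 40 and 58 counts in NC and 47, 43 and 52 in shPRMT6. The antisense counts were below those of GAS6 in every library, and their groups overlapped. GAS6-DT, a gene named for its divergent position at GAS6, had 5 to 8 counts in NC and 8 to 17 in shPRMT6.

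Copies of the members took few reads. TYRO3P, a pseudogene of TYRO3, had 0, 4 and 4 counts in NC and none in shPRMT6, and PROS2P, a pseudogene of PROS1, had none in any library. Of the 75-base stretches in member transcripts, 2.25% in PROS1 were shared with PROS2P, 2.27% in GAS6 with GAS6-AS1 and 0.681% in TYRO3 with other genes, TYRO3P among them. AXL and MERTK shared none. The antisense genes, GAS6-DT and both pseudogenes had no more than 66 counts in any library. The counts of the other genes that share TYRO3 stretches were not analysed here.

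Levels of different genes were compared as FPKM, which is scaled to transcript length. The order was the same in all 6 libraries, with AXL first, then PROS1, TYRO3, GAS6 and MERTK, and the ranges of neighbours in that order did not overlap within either group. AXL stood at 59.8 ± 1.31 FPKM in NC and 28.95 ± 0.828 in shPRMT6, and PROS1 at 4.46 ± 0.374 and 9.71 ± 2.03 (SD, n = 3). TYRO3 followed with 2.31 ± 0.227 and 2.86 ± 0.144 FPKM. GAS6 reached 0.269 ± 0.106 and 0.483 ± 0.142 FPKM and MERTK 0.0311 ± 0.00709 and 0.0575 ± 0.0347. By mean FPKM over the 6 libraries AXL ranked 809 among the 17817 genes with a mean of at least 0.1, PROS1 4759, TYRO3 8480 and GAS6 13933, and MERTK lay under that level.

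**Figure D3:**
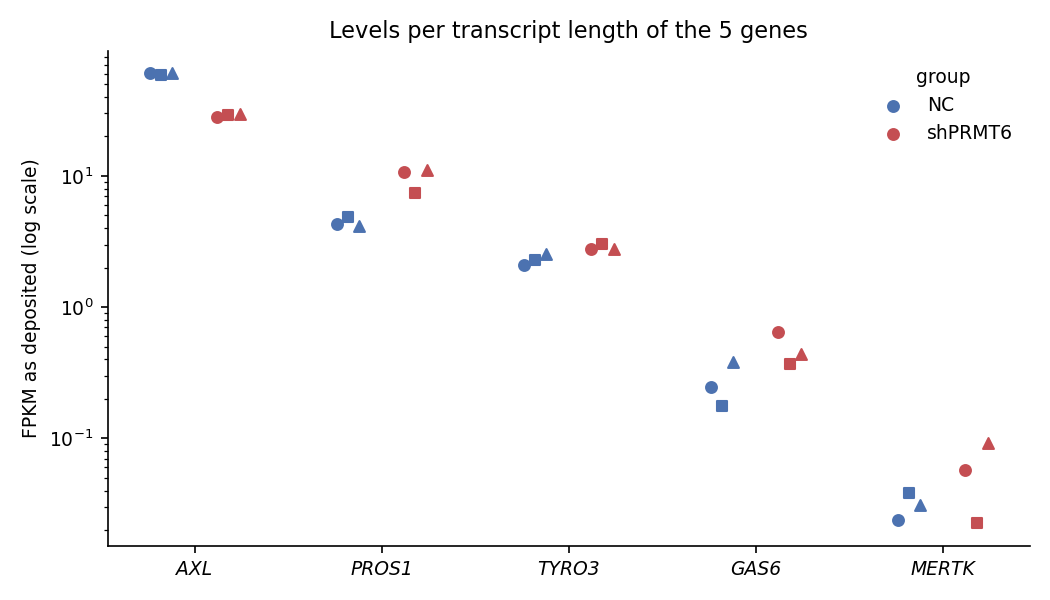
Deposited FPKM of the 5 genes on a logarithmic axis, ordered by level; each point is a library (circle, square and triangle for replicates 1, 2 and 3). The order from AXL (28.0 to 60.6 FPKM) down to MERTK (0.0226 to 0.0920 FPKM) is the same in both groups, and the gap between AXL and PROS1 is narrower in shPRMT6.

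AXL was nearly the whole of the TAM receptor RNA in both groups. Of the summed FPKM of the 3 receptors it made up 96.6%, 96.2% and 95.9% in NC and 90.8%, 90.6% and 91.2% in shPRMT6. TYRO3 made up most of the rest, 3.72% ± 0.341 in NC and 8.98% ± 0.409 in shPRMT6 (SD, n = 3), and MERTK at most 0.284% in any library. The receptor sum was 62.1 ± 1.36 FPKM in NC and 31.9 ± 0.882 in shPRMT6, so that the difference in AXL was larger than those in TYRO3 and MERTK together.

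PROS1 was likewise nearly the whole of the ligand RNA, with 91.6% to 96.5% of the summed ligand FPKM in NC and 94.4% to 96.2% in shPRMT6. The ratio of PROS1 FPKM to AXL FPKM was 0.0713, 0.0838 and 0.0689 in NC and 0.383, 0.252 and 0.373 in shPRMT6. Every shPRMT6 library was above every NC library, and replicate 2 was the lowest of its group. The ratio of the ligand sum to the receptor sum was 0.0762 ± 0.00636 in NC and 0.320 ± 0.0706 in shPRMT6 (SD, n = 3). RNA was measured in the cells, and protein S from serum in the medium is not part of these values.

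**Figure D4:**
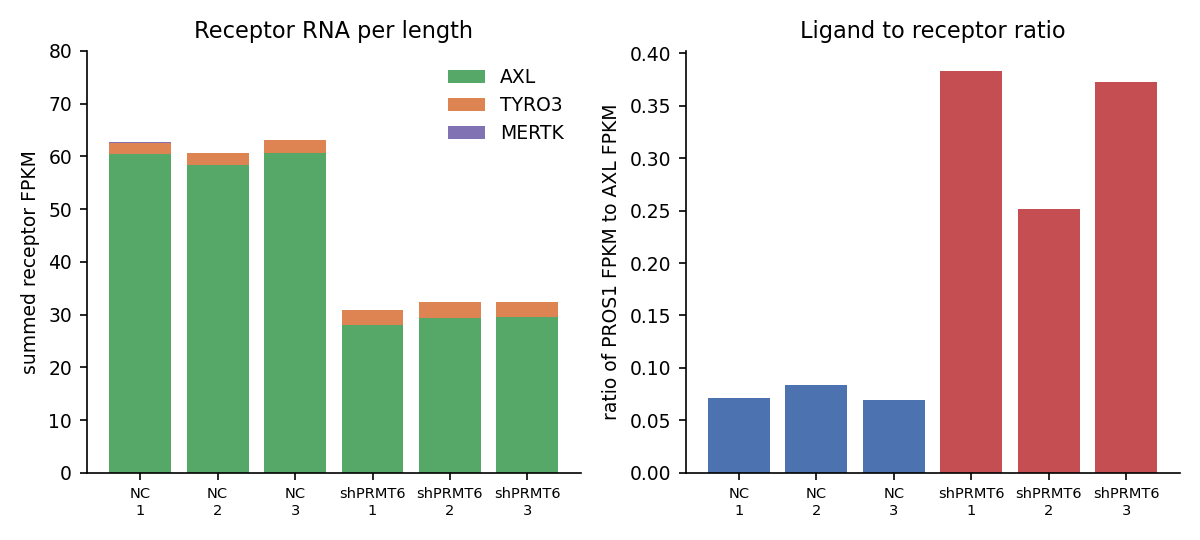
Left, summed FPKM of AXL, TYRO3 and MERTK in each library as stacked bars; right, ratio of PROS1 FPKM to AXL FPKM in each library. The receptor sum is 60.6 to 63.2 FPKM in NC and 30.9 to 32.4 FPKM in shPRMT6, and the ratio is 0.0689 to 0.0838 in NC and 0.252 to 0.383 in shPRMT6.

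In tissue, MERTK and PROS1 are also made by macrophages and endothelial cells, so markers of other cells were read in the same libraries. Of 8 myeloid and microglial markers, 7 stayed under 1 FPKM everywhere, and AIF1, CX3CR1 and P2RY12 had no counts. CSF1R, the remaining one, lay between 1.75 and 2.31 FPKM in NC and between 2.03 and 2.20 FPKM in shPRMT6. The summed FPKM of 4 endothelial markers was 1.49 to 1.93 in NC and 2.56 to 2.76 in shPRMT6, and most of it was TEK, the angiopoietin receptor, which rose with a log2 fold change of 0.60 (edgeR adjusted p = 0.0288). PECAM1 lay between 0.278 and 0.347 FPKM in NC and between 0.398 and 0.569 FPKM in shPRMT6, with no overlap, and was not called (log2 fold change 0.70, adjusted p = 0.0544). VWF had at most 47 counts in a library, with a log2 fold change of 1.97 that was not called (edgeR adjusted p = 0.297). CDH5 had at most 4 counts in an NC library and none in shPRMT6. TEK, PECAM1 and VWF were thus on the same side as PROS1 and CDH5 was not. The part of these markers in the PROS1 values was not tested. The neuronal sum, mostly SNAP25, was 6.59 to 6.92 FPKM in NC and 6.05 to 6.77 FPKM in shPRMT6, and all 4 oligodendrocyte markers stayed under 1 FPKM.

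Genes that work with the TAM receptors were read in 8 lists of 89 genes, of which 83 passed the filter on low counts. Of these, 10 rose and 8 fell, or 21.7%, beside 18.6% of all genes tested. DESeq2 called 33 of the 83 and 31.9% of all genes, and 31 of the 83 had an unadjusted edgeR p under 0.05, as had 32.6% of all genes. Without shPRMT6 replicate 1 or shPRMT6 replicate 2 edgeR called 11 of the listed genes rather than 18, and 9.95% or 9.25% of all genes. The median log2 fold change was -0.09 over the 83 genes and -0.01 over all genes. The genes with the largest changes among those called are named, at most 4 a list.

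No gene tested for ligand maturation was called, though the libraries of VKORC1L1 lay far apart. Its SD was 70.8% of the mean in NC and 80.2% in shPRMT6 (log2 fold change -0.31, SE 0.666). Of 5 genes tested on the list of ligand maturation and other proposed ligands, which holds the vitamin K enzymes GGCX, VKORC1 and VKORC1L1 and the galectin LGALS3, edgeR, DESeq2 and limma called 0, and 0 had an unadjusted edgeR p under 0.05. The same was so for the 6 genes of phosphatidylserine exposure, among them the scramblases XKR8 and ANO6. Of 8 genes of receptor shedding and intramembrane cleavage, which holds the AXL sheddases ADAM10 and ADAM17 and the subunits of gamma-secretase, edgeR and limma called 0. DESeq2 called 3, all higher, where it called 2940 of all 18106 genes higher and 31.9% in either direction. An unadjusted edgeR p under 0.05 was found for 3, all higher, and in either direction for 32.6% of all genes.

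Of 27 signal adaptors and effectors, 6 rose, 0 fell and 21 were not called in edgeR, which called 22.2% of them and 18.6% of all genes. On the lower side 3 had an unadjusted edgeR p under 0.05 and DESeq2 called 4, beside 8 and 8 on the higher side; over all genes, in either direction, these shares were 32.6% and 31.9%. STAT3, a transcription factor that relays growth factor and cytokine signals, rose most among those called. Its CPM was 57.5, 58.2 and 56.3 in NC and 97.8, 101 and 108 in shPRMT6, with no overlap between the groups. The log2 fold change of STAT3 was 0.83 (SE 0.0622, edgeR adjusted p = 0.000822). PIK3CA and PIK3CB, the catalytic subunits of PI3-kinase, rose to 142% and 138% of the NC mean (adjusted p = 0.00886 and 0.0374), from 39.2 to 44.9 CPM to 57.6 to 63.6 CPM for PIK3CA and from 28.2 to 36.3 CPM to 42.5 to 48.2 CPM for PIK3CB. NCK1, an adaptor that couples receptors to the actin cytoskeleton, rose to 126% of NC (adjusted p = 0.0234). The calls of PIK3CB and NCK1 each held without NC replicate 2 and were lost without any other single library, at adjusted p from 0.0641 to 0.119 and from 0.0605 to 0.0858. SRC and CRK, named after their values had been seen, rose with log2 fold changes of 0.33 and 0.29 (adjusted p = 0.0151 and 0.0142).

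A pair of adaptors on that list, picked out after their values had been seen, had single libraries far from the rest. GRB2, the adaptor that links receptors to RAS, had 2633, 12210 and 2866 counts in NC and 9832, 10653 and 11251 in shPRMT6, so that NC replicate 2 stood with the shPRMT6 libraries. Its log2 fold change was 0.96 (adjusted p = 0.228), and without NC replicate 2 it was 1.82 (adjusted p = 0.000955). PIK3R2, a regulatory subunit of PI3-kinase, had 4966, 5089 and 3993 counts in NC and 2816, 2418 and 100 in shPRMT6. In shPRMT6 replicate 3 the readthrough gene AC007192.1, which shares its exons, had 2991 counts, against at most 8 in any other library. The sum of both was 4966, 5097 and 3996 counts in NC and 2820, 2423 and 3091 in shPRMT6. For this sum the log2 fold change was -0.77 (adjusted p = 0.0127), where PIK3R2 alone gave -1.37 (adjusted p = 0.378) and, without shPRMT6 replicate 3, -0.81 (adjusted p = 0.0418). The counts given for this list, with 0 lower in edgeR, are for PIK3R2 without the readthrough gene. None of the 5 members shares exons with an annotated gene on its own strand.

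Of 8 genes of receptor turnover and negative regulation, 3 fell, 0 rose and 5 were not called in edgeR, which called 9.06% of all genes as lower. On the higher side 0 had an unadjusted edgeR p under 0.05 and DESeq2 and limma called 0. SOCS3, an inhibitor of cytokine signalling that TAM receptors induce in immune cells, had 69.6, 66.3 and 70.5 CPM in NC and 50.8, 45.6 and 46.4 CPM in shPRMT6 (log2 fold change -0.53, SE 0.0706, adjusted p = 0.00458). CBL, the ubiquitin ligase that marks receptor tyrosine kinases, AXL included, for degradation, went from 52.2, 65.6 and 59.3 CPM to 38.4, 41.0 and 46.6 CPM (log2 fold change -0.49, SE 0.114, adjusted p = 0.0291). TNS2, a tensin that binds AXL, stood at 81.8% of NC (adjusted p = 0.0392). The groups did not overlap for any of them. The call of CBL held without NC replicate 1 or shPRMT6 replicate 3 and was lost without any other single library, at adjusted p from 0.0606 to 0.0974. That of TNS2 held only without NC replicate 2, and was otherwise at 0.0894 to 0.132.

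Among partner receptor tyrosine kinases, 1 of 5 tested fell, beside 9.06% of all genes, and it was EGFR, which pairs with AXL in tumour cells and is a leading driver of glioblastoma. EGFR stood at 189, 223 and 210 CPM in NC and at 148, 155 and 150 CPM in shPRMT6, with no overlap. Its log2 fold change was -0.46 (SE 0.0726, adjusted p = 0.00812), smaller in size than that of AXL.

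Of 16 transcription factors known to act on the AXL promoter, 1 rose, 3 fell and 12 were not called, so that 25.0% were called beside 18.6% of all genes. On the lower side 6 had an unadjusted edgeR p under 0.05 and DESeq2 called 6, beside 1 and 1 on the higher side. Over all genes, in either direction, the shares with such a p and with a DESeq2 call were 32.6% and 31.9%. JUN, an AP-1 subunit, rose from 411, 417 and 397 CPM to 580, 576 and 591 CPM (log2 fold change 0.51, SE 0.0467, adjusted p = 0.00148). FOSL1, its partner in AP-1, fell from 389, 408 and 405 CPM to 286, 298 and 290 CPM (log2 fold change -0.46, SE 0.0494, adjusted p = 0.00224). Subunits of the same factor therefore moved in opposite directions. TEAD4, which recruits YAP and TAZ to DNA, fell from 15.3, 15.8 and 15.5 CPM to 10.3, 10.2 and 11.4 CPM (log2 fold change -0.55, SE 0.0921, adjusted p = 0.00979). WWTR1, which encodes TAZ, fell to 76.7% of NC (log2 fold change -0.38, SE 0.0561, adjusted p = 0.00619). YAP1, TEAD1, TEAD2 and TEAD3 were not called. The letters of a TEAD site stood in the second AXL window shown above, and in 14.0% of all promoter windows. The first AXL window did not hold them, and neither AXL window held those of an AP-1 site. The part of these factors in the AXL values was not tested.

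Other phosphatidylserine receptors and bridges had 3 genes higher and 1 lower of 8 tested, beside 9.51% higher and 9.06% lower over all genes. ITGB3, an integrin subunit, had 256.5, 284 and 291 CPM in NC and 478, 459 and 482 CPM in shPRMT6 (log2 fold change 0.77, SE 0.0644, adjusted p = 0.00115). MFGE8, a secreted bridge between phosphatidylserine and such integrins, had 45.1, 38.1 and 48.05 CPM in NC and 67.0, 75.2 and 71.6 CPM in shPRMT6 (log2 fold change 0.70, SE 0.103, adjusted p = 0.00614). ITGB5, the other integrin subunit listed, rose to 145% of NC (log2 fold change 0.54, SE 0.0772, adjusted p = 0.00581). LRP1, a large scavenger receptor, fell to 73.5% of NC (adjusted p = 0.0431), a call that was lost without any single library other than NC replicate 1, at adjusted p from 0.0849 to 0.129. ITGAV, the integrin subunit that pairs with both, had a log2 fold change of 0.38 (SE 0.158) and was not called (adjusted p = 0.155).

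**Figure D5:**
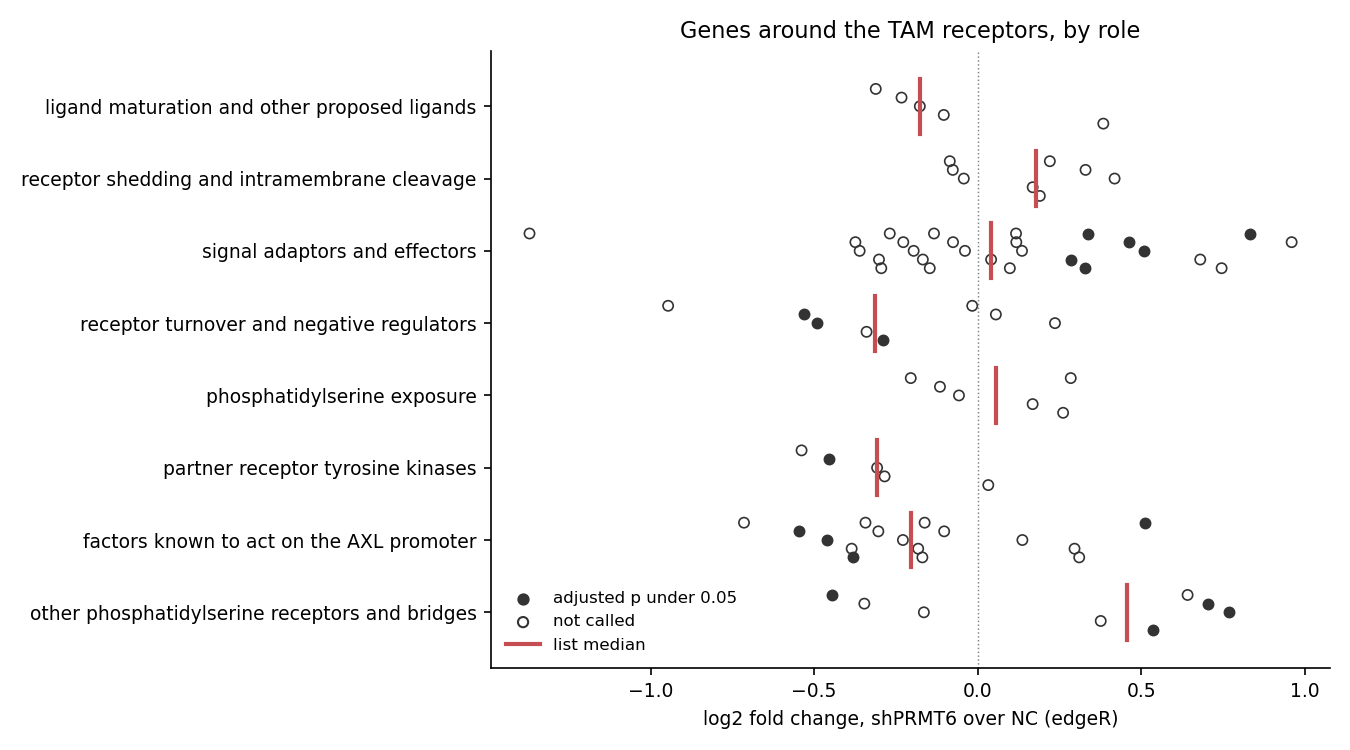
Log2 fold change of shPRMT6 over NC (horizontal axis, dotted line at 0) for the 83 genes tested in 8 lists; filled points have an edgeR adjusted p under 0.05, open points do not, and red bars are list medians. The filled points are higher for 6 signal adaptors and effectors and lower for 3 receptor turnover genes, and the list medians run from -0.31 to 0.46.

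The genes whose profile was most like that of AXL were sought among 10050 genes whose log2 CPM averaged at least 3. Likeness was the root mean square difference between log2 CPM profiles over the 6 libraries, each set to its own NC mean. The nearest was KIF18B, a mitotic kinesin, at 0.0336, followed by KIF2C, another kinesin, at 0.0467. NUSAP1, a spindle protein, came next at 0.0474, ACLY, which makes acetyl-CoA from citrate, at 0.0531, and STC2, a secreted glycoprotein, at 0.0575. KIF18B had 63.1, 59.5 and 59.0 CPM in NC and 28.8, 30.0 and 28.7 CPM in shPRMT6, and the log2 fold changes of the 5 genes ran from -1.11 to -1.01. These genes were found by the same contrast that chose AXL, so their likeness is a description.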

How the data were processed

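RNA sequencing of U87 cells gave 3 NC and 3 shPRMT6 libraries, grouped by the labels, which the methods call independent replicates. The 5 genes and all gene lists were chosen with earlier results of these data known. The authors deposited raw counts per gene and FPKM values, with 0.0001 in place of 0. The submitters' processing notes name HISAT2, HTSeq 0.13.5 and GRCh38. Of 60612 identifiers, 60401 were matched to a symbol. Counts were tested with edgeR 4.0.16 in R 4.3.3 (TMM scaling, its filter on low counts, quasi-likelihood test, Benjamini-Hochberg adjustment over 18106 genes). The fit was checked on simulated counts in which every gene had the same spread beyond counting error. That check does not cover single libraries far from the rest, as for GRB2 and PIK3R2. CPM values are TMM-scaled, and errors are SD over 3 libraries. p-values measure the spread between these libraries only. Alternatives used DESeq2 1.42.0 and limma 3.58.1 on log2 FPKM. Of each list, called genes were named, at most the 4 with the largest change. Positions, 3′ UTRs (at least 50 bases) and overlaps came from GENCODE 29, and promoters from RefSeq. AXL and TYRO3 had 2 promoter windows each. Seed sites of 1 member are not reported here. Protein sequences and the proteome were not analysed here.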

Additional observations from a re-analysis of the deposited data

How the results depend on the processing

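The directions of the 5 members were the same in every alternative that gave a value, and the change of AXL, TYRO3 and PROS1 moved by less than 1 SD of the libraries in all 15. On log2(FPKM + 1) without a filter, which compresses low values, GAS6 changed by 0.22 and MERTK by 0.036. GAS6 and MERTK were below the minimum of the other FPKM fits, and MERTK below 10 counts in some libraries. Leaving out 1 library gave -1.07 to -1.03 for AXL, 0.24 to 0.37 for TYRO3, 0.33 to 1.20 for MERTK, 0.59 to 1.18 for GAS6 and 1.02 to 1.28 for PROS1. The genes called numbered 3362, against 5782 in DESeq2, 1858 with a replicate block and 1073 by limma on log2(FPKM + 1) without a filter; with 1 library left out they ran from 1755 to 3183, with 1939 without NC replicate 3 and 1871, 1755 and 1858 without shPRMT6 replicates 1, 2 and 3. The pathway genes called numbered 18, against 33, 12 and 9, and 11 to 20 with 1 library left out, with 11 without shPRMT6 replicate 1 or 2. The fall of PRMT6 was not called with the replicate block (-0.88, adjusted p = 0.0803) or on log2(FPKM + 1) without a filter (-0.47, adjusted p = 0.158), and with 1 library left out its log2 fold change ran from -1.0 to -0.73 (adjusted p 0.0376 to 0.0713). Over all genes tested, deviations of same-numbered libraries correlated at -0.0301 to -0.0171, and those of differently numbered libraries at -0.0195 to 0.0449. These values gave no sign that replicate numbers pair the libraries. A correlation over all genes cannot exclude a pairing that acts on some of them. Of the 16 named pathway genes, none changed direction; 12 kept their call under the replicate block, 8 by limma on log2(FPKM + 1) without a filter and 11 to 14 with 1 library left out. The cause of these differences was not tested. Over the 4 genes read, a seed site of bases 2 to 7 was in 2, 2 and 0 for shRNAs #1, #2 and #3, against 1, 1 and 0 for bases 2 to 8. AXL held 96.3% of the receptor RNA in NC and 90.9% in shPRMT6 when counts were scaled to exon length.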
